A study of Homo sapiens with 32 samples.

Results

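Lipopolysaccharide (LPS) raised chemokine, interferon-response and NF-kB feedback transcripts in THP-1 cells that lack ATP-citrate lyase (ACLY), and lowered a short list led by C1QA and CD14. THP-1 is an established human monocytic leukemia cell line. The comparison set 4 libraries of the ACLY knockout line cultured with LPS (KO LPS) against 4 libraries of the same line without it (KO), 8 of the 32 libraries in the series. All genes with a mean normalised read count of at least 10 over these 8 libraries were members, which gave 12088 of 60107 genes. Per the labels, the cells received 100 ng/ml LPS for 3 hours. The study's figure legend for these sequencing data gives the same dose and time, while a general methods paragraph gives a lower dose. The remaining 24 libraries came from knockout cells carrying wild type ACLY (WT), the catalytically inactive H760A mutant (HA) or the S455A mutant that cannot be phosphorylated at that serine (SA), each with and without LPS. These 3 lines were made by lentiviral transduction of the knockout cells, and the study does not say that the KO cells had received a vector, so transduction and ACLY status cannot be told apart between KO and the others. All 8 KO libraries came from 1 line. The labels number the libraries 1 to 4 without saying that they came from separate cultures, so the p-values measure the spread between these libraries.

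ACLY is the cytosolic enzyme that cleaves citrate to acetyl-CoA, the building block of fatty acids and sterols and the donor of acetyl groups to histones. LPS from the outer membrane of Gram-negative bacteria binds the TLR4 and LY96 (MD-2) receptor with the help of CD14. Signalling through MYD88 activates NF-kB and AP-1, which switch on cytokines and chemokines, and signalling through TICAM1 (TRIF) activates interferon regulatory factors, whose targets include interferon beta and the genes that interferon in turn induces through elements with repeated GAAA.

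Promoters of genes that moved are shown first, chosen for the matches they hold to DNA elements by which these pathways are known to act. Of the 18 genes called raised below, 12 had a promoter entry in RefSeq (GRCh38.p14), each a window of 300 bases that runs from 250 before to 50 after the annotated start. The windows were searched on both strands for the NF-kB consensus, for GAAA repeated after a gap of 2 bases, the core of the interferon-stimulated response element (ISRE), and for TGANTCA, the AP-1 site, and capitals mark the matches. The first 3 encode the ligands of the CXCR3 receptor, IFIT3 is an antiviral interferon target, BIRC3 is an NF-kB target that inhibits cell death, and CD14 is the LPS co-receptor, which fell. CXCL11 lies at chr4:76036021-76036320, minus strand, CXCL10 at chr4:76023448-76023747, minus strand, CXCL9 at chr4:76007460-76007759, minus strand, IFIT3 at chr10:89327747-89328046, plus strand, BIRC3 at chr11:102317234-102317533, plus strand, and CD14 at chr5:140633126-140633425, minus strand.
CXCL11: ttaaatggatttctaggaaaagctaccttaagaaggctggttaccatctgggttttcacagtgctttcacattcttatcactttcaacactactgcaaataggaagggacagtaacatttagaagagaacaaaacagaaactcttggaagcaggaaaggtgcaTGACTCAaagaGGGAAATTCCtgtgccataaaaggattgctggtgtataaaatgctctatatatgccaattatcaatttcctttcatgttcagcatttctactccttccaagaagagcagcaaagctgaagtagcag
CXCL10: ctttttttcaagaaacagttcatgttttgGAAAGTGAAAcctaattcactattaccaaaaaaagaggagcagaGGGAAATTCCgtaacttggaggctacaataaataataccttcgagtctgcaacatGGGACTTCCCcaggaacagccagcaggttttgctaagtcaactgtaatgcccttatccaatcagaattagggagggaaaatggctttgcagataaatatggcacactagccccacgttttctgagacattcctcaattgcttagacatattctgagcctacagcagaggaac
CXCL9: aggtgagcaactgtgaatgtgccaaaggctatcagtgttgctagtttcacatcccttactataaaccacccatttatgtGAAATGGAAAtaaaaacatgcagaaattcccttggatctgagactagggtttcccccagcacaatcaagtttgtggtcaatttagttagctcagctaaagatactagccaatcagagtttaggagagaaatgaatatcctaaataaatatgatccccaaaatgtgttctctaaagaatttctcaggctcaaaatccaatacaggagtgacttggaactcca
IFIT3: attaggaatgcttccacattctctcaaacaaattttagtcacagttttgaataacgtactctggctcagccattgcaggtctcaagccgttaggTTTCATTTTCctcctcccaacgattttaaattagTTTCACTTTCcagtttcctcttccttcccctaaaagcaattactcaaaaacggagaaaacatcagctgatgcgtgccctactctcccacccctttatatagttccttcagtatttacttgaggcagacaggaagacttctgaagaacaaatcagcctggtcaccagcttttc
BIRC3: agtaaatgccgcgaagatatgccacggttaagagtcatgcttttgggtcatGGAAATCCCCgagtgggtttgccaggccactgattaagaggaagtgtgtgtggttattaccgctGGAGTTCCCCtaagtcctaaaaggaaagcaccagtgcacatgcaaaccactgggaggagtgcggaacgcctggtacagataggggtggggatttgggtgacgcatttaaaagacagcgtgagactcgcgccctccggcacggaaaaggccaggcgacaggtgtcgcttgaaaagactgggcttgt
CD14: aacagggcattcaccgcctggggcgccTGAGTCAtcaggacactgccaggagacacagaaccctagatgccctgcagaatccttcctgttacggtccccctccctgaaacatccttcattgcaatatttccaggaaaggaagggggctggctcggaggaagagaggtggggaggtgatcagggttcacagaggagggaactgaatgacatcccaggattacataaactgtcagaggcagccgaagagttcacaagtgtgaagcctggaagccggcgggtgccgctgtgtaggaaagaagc

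The CXCL10 window held 2 NF-kB matches and 1 ISRE match, that of CXCL11 held 1 NF-kB match and 1 AP-1 match, and that of CXCL9 held 1 ISRE match. IFIT3 carried 2 ISRE matches, BIRC3 carried 2 NF-kB matches, and CD14 carried 1 AP-1 match and neither of the others. Among the 12 promoters of raised genes, 4 held an NF-kB match, 4 an ISRE match and 1 an AP-1 match, against 5.72%, 3.65% and 7.76% of all 27305 promoters and 6.52%, 2.98% and 4.24% of the 9046 promoters of tested genes. An NF-kB or ISRE match was present in 7 of the 12, against 9.19% of all promoters and 9.32% of those of tested genes. The windows of PMAIP1, CCL3, ACOD1, NCOA7 and ATF3 held none of the 3 motifs. CXCL10, shown above, is not among the 12. Among the 76 promoters of the 107 genes called raised in the paired fit described below, 23.7% held an NF-kB match, 19.7% held an ISRE match and 13.2% held the AP-1 site. Of genes called raised only in that fit, TNF, SOD2 and ICAM1 had windows without any of the motifs. The windows of CXCL10, NFKBIA, TNFAIP3 and IFIT1 did hold matches. These matches describe the letters in the windows only.

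Depth was similar in both groups. KO libraries held 7346395 to 10505540 reads on genes and KO LPS libraries 8041764 to 13002790, and the most read gene in every library was MT-RNR2, the mitochondrial large ribosomal RNA. The 2 libraries numbered 3, one in each group, stood apart from the other 6 along the first principal component, which carried 58.8% of the variance. Of the 120 genes called in the paired fit described below, 103 were also called by it without both of these libraries. Among those named below, HMOX1, IFIH1, RSAD2, CMPK2, TLR8, SPP1, FRAT2, BORCS6 and RAB7B were not. Without both libraries numbered 1, 2 or 4, the paired fit called 73, 55 or 54 of the 120. Leaving out number 3 was chosen after the data were seen. A gene low in both libraries numbered 3 has a smaller unpaired spread without them. Unpaired p-values without number 3, given below for single genes, are therefore not independent support. All 12 monocytic markers checked were detected in both groups, with a summed normalised count of 24810 to 36400 in KO and 25260 to 39900 in KO LPS. Of 7 T and NK cell markers, 1 reached a mean of 10, and CD3D, CD3E, CD3G, CD2 and KLRD1 had no read in any of the 8 libraries. ACLY itself had normalised counts of 85.9, 94.7, 73.7 and 59.7 in KO and 60.7, 87.4, 68.8 and 53.5 in KO LPS. ACLY averaged 96.3 in unstimulated WT libraries, on the scale of that line. The edited part of the gene is not given in the sources used here, so these 3′ counts do not check the knockout. WT cells carried the ACLY coding sequence on a lentiviral construct. Whether its transcripts enter these 3′ counts was not checked, so the WT value does not measure re-expression.

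Without pairing the libraries, limma on log2(normalised count + 1) called 20 of 12088 genes at an adjusted p-value (Benjamini-Hochberg) below 0.01, or 0.165%. Of these, 18 were raised (0.149%) and 2 lowered (0.0165%), and 544 genes had an unadjusted p below 0.05. For all 20 genes the 4 KO LPS libraries did not overlap the 4 KO libraries, which held for 3.59% of all genes tested (1.99% raised and 1.6% lowered). Deviations from group means correlated positively between same-numbered KO and KO LPS libraries, least for number 1 (0.144). KO library 1 correlated best with KO LPS library 2. The replicate number was also fitted as a block. This paired fit called 120 genes (0.993%), 107 raised (0.885%) and 13 lowered (0.108%), with 1588 at an unadjusted p below 0.05. The 120 included all 20, and each of the 120 moved in 1 direction in all 4 pairs, as did 11.8% of all genes upward and 11% downward. The counts depend on the libraries used. Leaving out 1 of the 8 libraries at a time left between 5 genes (without KO library 1) and 31 (without KO library 3) in the unpaired fit, and CCL3L1, CCL4, CCL5, CXCL11 and IFIT2 were called each time, while each of the other calls was lost at least once. CXCL9 was called in 6 of these 8 fits, IFIT3 and TNFSF10 in 4, and ATF3, BIRC3, CCL3 and GBP4 in 1. Leaving out both libraries numbered 3 gave 89 calls without and 118 with the block. Leaving out number 1, 2 or 4 gave 77, 55 or 54 in the paired fit. The median log2 change of all tested genes was 0.01.

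**Figure D1:**
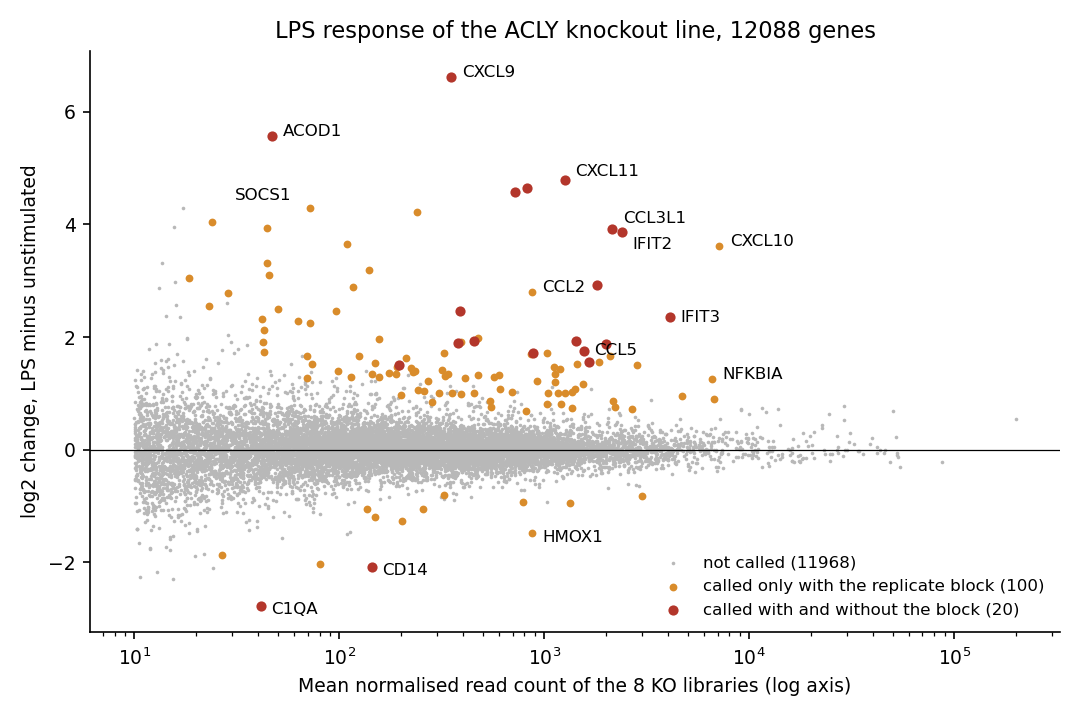
The log2 change with LPS (vertical axis) is plotted against the mean normalised read count of the 8 KO libraries (log axis) for 12088 genes, with genes called with and without the replicate block in red (20), genes called only with the block in orange (100) and all others in grey. Calls above 0 outnumber those below, and CXCL9 stands highest at 6.61.

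The share of all reads that fell on the 18 raised genes was 0.0665% to 0.0834% in KO and 0.324% to 0.515% in KO LPS libraries. For the 107 genes of the paired fit the shares were 0.538% to 0.607% and 1.35% to 1.94%. The median log2 change of the 107 genes was 1.50, 30 of them exceeded 4-fold and 16 stayed below 2-fold. Both sets were chosen on these same 8 libraries. The direction of these shares and changes follows from that choice, and their sizes are not an independent measure. In bulk RNA, a change in the number of responding cells and a change of RNA per cell cannot be told apart.

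The largest rises included several chemokines, the secreted proteins that attract leukocytes. CXCL9, CXCL10 and CXCL11 all bind CXCR3 on activated T cells and NK cells. CXCL9 had normalised counts of 5.65, 8.44, 1.21 and 9.0 in KO libraries 1 to 4 and 887, 1191, 450 and 265 in KO LPS libraries 1 to 4. All 4 stimulated libraries thus lay far above the unstimulated ones, and the log2 change was 6.61 (SE 0.58, limma adjusted p 1.26e-03). CXCL11 went from 105, 82.5, 64.1 and 71.2 to 4332, 2413, 1535 and 1482, a log2 change of 4.78 (SE 0.33, limma adjusted p 3.01e-04). CXCL10 was the most abundant of the group in both conditions, with 1859, 1378, 395 and 825 in KO and 15090, 21700, 5683 and 10170 in KO LPS. The lowest CXCL10 library in each group was number 3, so the log2 change of 3.62 (SE 0.52) missed the threshold unpaired (limma adjusted p 0.0162) and passed it in the paired fit (limma adjusted p 2.94e-07). Without both libraries numbered 3 the log2 change was 3.54 (limma adjusted p 2.89e-05 unpaired). The pairs differed by 3.02, 3.98, 3.84 and 3.62 log2 units.

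Of 20 CC chemokine genes and relatives, which draw monocytes and T cells, 9 were tested. Of these 5 were called raised, 7 in the paired fit, and none was lowered, while CCL13 and CCL23 passed in neither fit (log2 changes 1.39 and 1.01). CCL3 and CCL4 (macrophage inflammatory proteins) have near-identical copies, CCL3L1 and CCL4L2, and how reads were divided between copies was not checked, so the 4 genes are best read together. CCL4 had 78.0, 71.2, 25.4 and 62.2 in KO and 1839, 1660, 792 and 1240 in KO LPS, and CCL4L2 went from 129, 78.7, 21.8 and 42.5 to 2067, 2233, 655 and 1352. Their log2 changes were 4.57 (SE 0.38) and 4.65 (SE 0.55). CCL3L1 had the smallest adjusted p of all genes in the unpaired fit, rising from 314, 223, 324 and 207 to 3587, 4579, 4840 and 3116 (log2 change 3.92, SE 0.21, limma adjusted p 8.69e-05). CCL3 started higher in library 3 (805, against 286 to 392 in the other KO libraries) and reached 2544 to 3842, a log2 change of 2.93 (SE 0.31).

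CCL5 (RANTES), at chr17:35871491-35880793 on the minus strand (GRCh38), had the smallest standard error of the 20 calls, with 762, 643, 748 and 682 in KO and 2414, 2751, 2389 and 2080 in KO LPS. Its log2 change was 1.76 (SE 0.14, limma adjusted p 9.55e-04). CCL2 (MCP-1), the main monocyte attractant, varied widely between library numbers. It read 314, 528, 12.1 and 139 in KO and 2315, 2624, 135 and 868 in KO LPS. KO LPS library 3 was therefore lower than 3 of the 4 unstimulated libraries, while every pair rose, by 2.88, 2.31, 3.38 and 2.63 log2 units. The unpaired limma adjusted p was 0.9998 and the paired one 6.94e-06, and without both libraries numbered 3 the log2 change was 2.61 (limma adjusted p 8.07e-03 unpaired). CCL8 (MCP-2) behaved likewise, with 9.04, 30.9, 6.04 and 9.0 in KO against 396, 1322, 79.7 and 63.2 in KO LPS (limma adjusted p 0.142 unpaired and 2.77e-04 paired).

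Neutrophil-attracting CXC chemokines were low. Of 14 CXC chemokine genes, 5 were tested, and CXCL1, CXCL2 and CXCL3 did not reach the count minimum. CXCL8 (interleukin-8) had 19.2, 20.6, 15.7 and 20.5 in KO and 30.4, 85.3, 44.8 and 51.4 in KO LPS. The groups did not overlap, but the log2 change of 1.34 (SE 0.34) was not called in either fit (limma adjusted p 0.252 unpaired and 0.0529 paired).

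**Figure D2:**
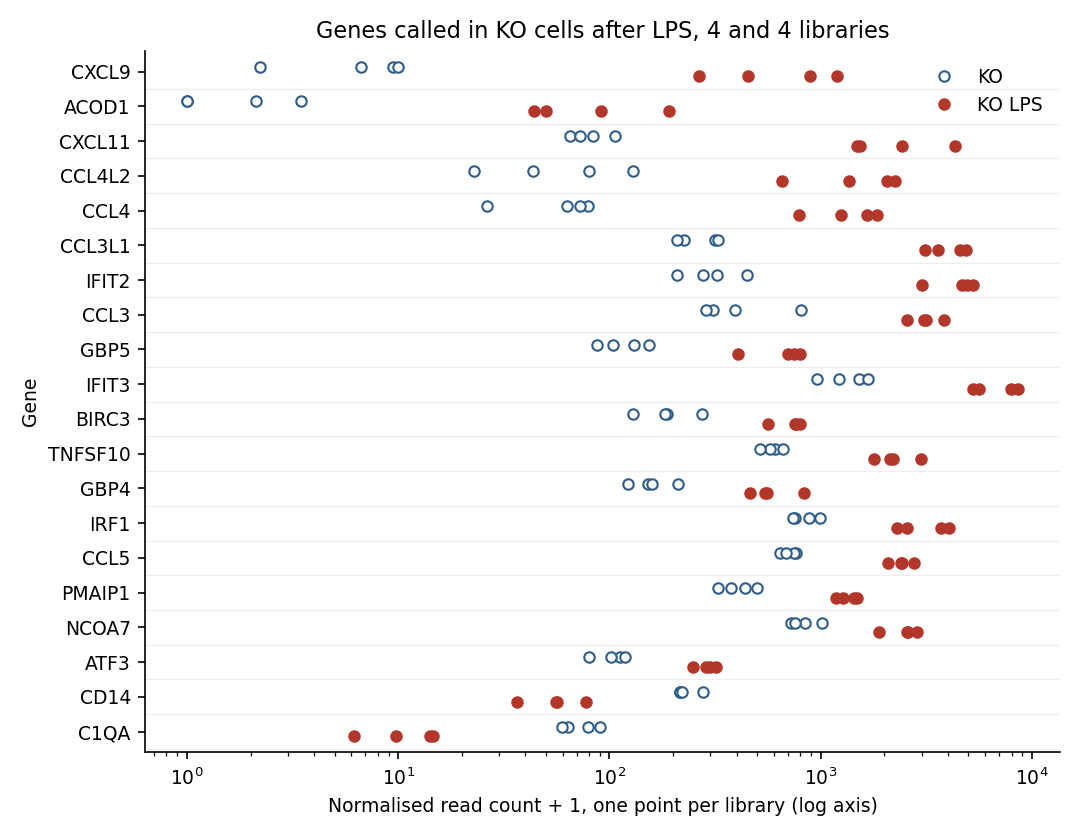
Each row is 1 of the 20 genes called in the unpaired fit, each point 1 library, on a log axis of normalised read count + 1, with KO libraries as open blue circles and KO LPS libraries as red circles. In every row the 4 red points lie on one side of the 4 blue ones, to the right for 18 genes and to the left for CD14 and C1QA.

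Interferon-response genes moved unevenly. Of 63 tested, 5 were called raised and 16 in the paired fit, none was lowered in either, and their median log2 change was 0.42 against 0.01 for all genes. Of the 5 called unpaired, IFIT2, an RNA-binding antiviral protein, had the largest change, with 208, 321, 446 and 276 in KO and 5266, 4928, 4662 and 3015 in KO LPS (log2 change 3.86, SE 0.26, limma adjusted p 3.01e-04). Its neighbour IFIT3 went from 1518, 1675, 1216 and 957 to 7915, 8594, 5581 and 5256 (log2 change 2.35, SE 0.23). In neither gene did the groups overlap. The guanylate-binding proteins GBP5 and GBP4 had log2 changes of 2.46 (SE 0.26) and 1.89 (SE 0.23). IRF1, a transcription factor that acts upstream of many interferon-response genes, had 757, 741, 989 and 875 in KO and 2546, 4056, 3708 and 2294 in KO LPS (log2 change 1.87, SE 0.21).

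The paired fit added IFIT1 (log2 change 1.56), IFIT5 (1.21), OASL (1.99), APOL6 (1.21), ISG20 (1.01), RSAD2 (0.75), CMPK2 (0.75), the RNA sensors DDX58 (RIG-I, 1.33) and IFIH1 (MDA5, 1.17), IFNL1 (2.12) and SOCS1 (4.29). Many classical members were high before LPS and were not called. MX1, an antiviral GTPase, had 6732, 5201, 9068 and 5768 in KO and 8406, 5903, 8783 and 6455 in KO LPS, so the groups overlapped and the log2 change was 0.15 (SE 0.22). ISG15, IFI6 and OAS2 were likewise not called, with log2 changes of 0.34, -0.06 and 0.15. IFNB1, the gene of interferon beta, had 1, 1, 0 and 0 reads in KO and 46, 70, 0 and 5 reads in KO LPS. Its reads came almost wholly from libraries 1 and 2, and the gene was not called (limma adjusted p 0.9998 unpaired and 0.191 paired).

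TNFSF10 (TRAIL), a death ligand also induced by interferon, rose from 604, 573, 661 and 517 to 2966, 2128, 2192 and 1788 (log2 change 1.93, SE 0.18, limma adjusted p 1.85e-03) and was the 1 gene of 19 tested cytokines called in the unpaired fit. Paired, 6 of 19 were raised. TNF had 705, 787, 890 and 735 in KO and 1532, 1598, 1602 and 1531 in KO LPS. Its log2 change was 1.01 (SE 0.14, limma adjusted p 0.0124 unpaired and 6.90e-04 paired), so the threshold of 0.01 fell between the fits. IL1B had 137, 272, 105 and 102 in KO and 537, 720, 282 and 442 in KO LPS, with a log2 change of 1.72 (SE 0.37, limma adjusted p 0.136 unpaired and 2.38e-04 paired). KO LPS library 3 lay just above the highest unstimulated library. IL1RN, the natural antagonist of IL-1, rose by 1.07 in the paired fit (limma adjusted p 2.01e-03, 0.489 unpaired), as did TNFSF15 and TNFSF13B (BAFF), with log2 changes of 3.94 and 1.00. TNFSF15 had 0 reads in KO library 3, and its log2 change was 3.20 without both libraries numbered 3.

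Other cytokines of the classical LPS response were barely read. IL6 had 0 reads in the 4 KO libraries and 2, 13, 1 and 0 reads in the KO LPS libraries, below the count minimum, and no test was made. IL10 had 0 reads in KO and 0, 7, 1 and 0 in KO LPS, and IL12B had 1, 0, 0 and 0 against 0, 6, 0 and 2. In all 3 genes library 2 held most of the stimulated reads. A difference in these genes was not detectable at this depth.

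Inhibitors and feedback regulators of NF-kB formed the most widely called list of the paired fit outside the chemokines. Of 32 tested genes 1 was called raised unpaired and 13 paired, none was lowered, and the median log2 change was 0.79. BIRC3, whose promoter is shown above, had 186, 183, 272 and 128 in KO and 800, 759, 753 and 564 in KO LPS (log2 change 1.93, SE 0.24, limma adjusted p 7.96e-03). Called in the paired fit were NFKBIA (IkB-alpha, log2 change 1.26), NFKBIZ (1.45), BCL3 (1.29), TNFAIP3 (A20, 1.34), TNIP1 (0.87), TNIP3 (3.10), TRAF1 (2.50), TNFAIP2 (1.52), TNFAIP8 (0.80), IER3 (1.37), ZC3H12A (1.44) and NFKB1 (1.00). These include the proteins that hold NF-kB in the cytosol, the ubiquitin-editing enzyme A20 with its partners, and a ribonuclease that degrades cytokine messages. The subunits RELA, REL, RELB and NFKB2 were not called, with log2 changes of -0.08, 0.35, 0.28 and 0.49.

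The receptor complex showed few calls. Of 32 tested genes of the LPS receptor and its adaptors, none was called raised and CD14 was lowered. CD14 had 277, 216, 215 and 219 in KO and 35.6, 55.1, 55.7 and 76.4 in KO LPS, a log2 change of -2.08 (SE 0.25, limma adjusted p 7.03e-03). KO library 1 was the highest of its group. The call held in 2 of the 8 fits that left out 1 library (KO library 3 or KO LPS library 4), with log2 changes of -2.25 to -1.88 over the 8. TLR4 was low, with 15, 42, 19 and 24 reads in KO and 15, 6, 10 and 16 in KO LPS, and was not called (log2 change -1.09, SE 0.40, limma adjusted p 0.848). MYD88, with a log2 change of 0.85 (SE 0.72), had only 35 and 74 reads in the libraries numbered 3 against 172 to 408 and 393 to 555 in the others, and was not called in either fit (limma adjusted p 0.9998 unpaired and 0.0156 paired, and 0.0224 paired without number 3). PELI1, a ubiquitin ligase that acts on IRAK kinases, went from 27.1, 48.7, 10.9 and 23.7 to 271, 290, 91.7 and 165 (log2 change 2.88, limma adjusted p 0.0387 unpaired and 3.02e-05 paired), and the endosomal RNA receptor TLR8 rose by 1.29 in the paired fit.

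**Figure D3:**
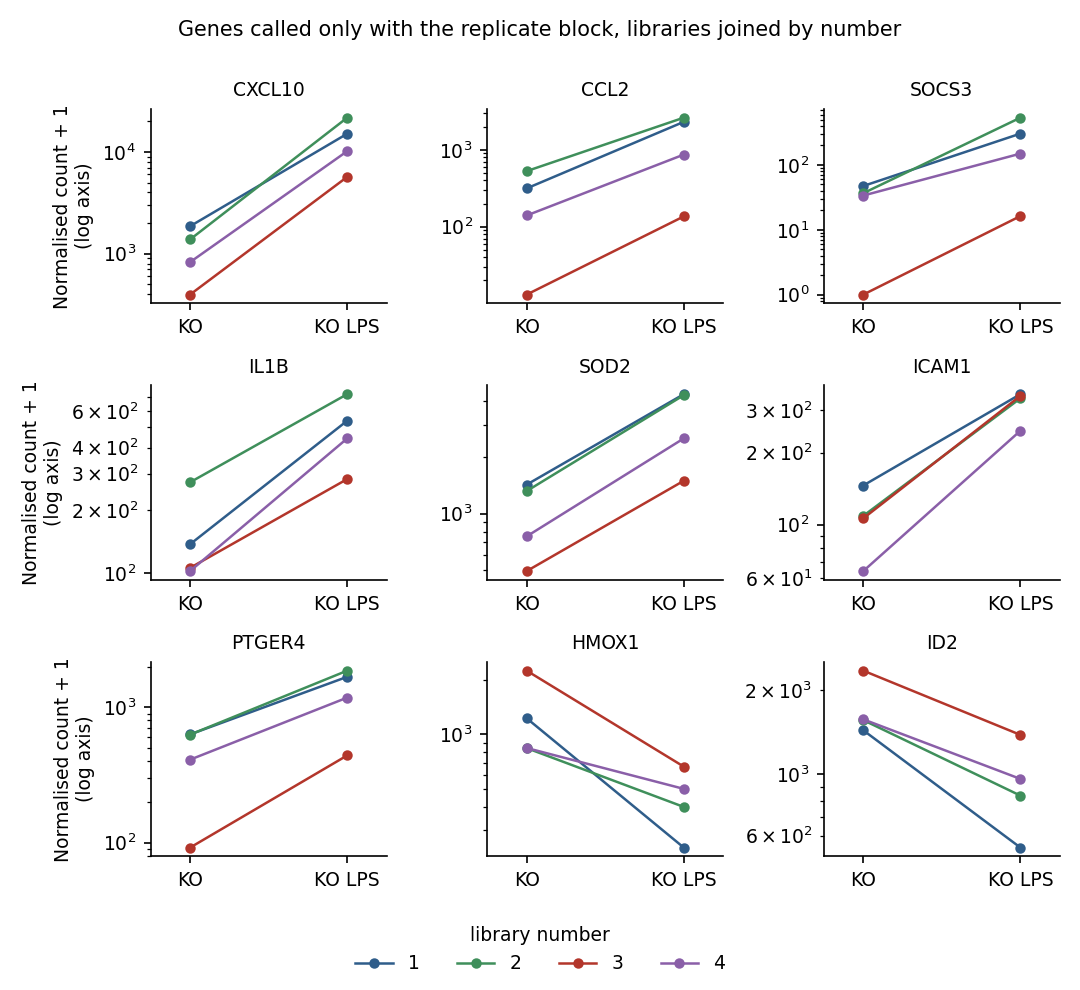
Normalised read counts + 1 (log axis) of 9 genes called only with the replicate block are joined between the KO and the KO LPS library of the same number, 1 colour per number. All lines slope up for 7 genes and down for HMOX1 and ID2, and the red line of number 3 is the lowest for CXCL10, CCL2, SOCS3, SOD2 and PTGER4 and the highest for HMOX1 and ID2.

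Signalling terminators and transcription factors of the early response were called mainly in the paired fit. The cytokine signalling inhibitor SOCS1 had 3, 16, 0 and 7 reads in KO and 173, 267, 16 and 104 in KO LPS, and SOCS3 had 41, 38, 0 and 40 against 290, 515, 14 and 214. In both genes number 3 was lowest in each group. KO LPS library 3 lay below 3 of the KO libraries for SOCS3, which was called only paired (limma adjusted p 4.13e-04, 0.9998 unpaired). Without number 3 the log2 changes were 4.31 for SOCS1 and 2.90 for SOCS3 (limma adjusted p 8.14e-04 and 9.62e-04 unpaired). The MAP kinase phosphatase DUSP5 and the G-protein regulator RGS16 rose by 2.25 and 1.96, and ZFP36L1, which destabilises AU-rich messages, fell by 2.02 (150, 174, 66.5 and 128 to 19.9, 42.6, 24 and 36.1), all in the paired fit. Of 30 early response and AP-1 factors, ATF3 was called raised (79.1, 111, 117 and 101 to 287, 318, 248 and 296, log2 change 1.50, SE 0.19, limma adjusted p 8.78e-03), and JUN and CEBPD were also called raised when paired, with log2 changes of 1.23 and 1.03. FOS, FOSB and MYC were not called (log2 changes 0.07, -0.04 and -0.24).

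ACOD1, the mitochondrial enzyme that turns cis-aconitate into the antimicrobial metabolite itaconate, was close to absent without LPS. It had 1, 0, 0 and 3 reads in KO and 86, 182, 45 and 62 in KO LPS, a log2 change of 5.58 (SE 0.61, limma adjusted p 4.40e-03), whose size depends on the pseudocount because 2 libraries held no read. Mitochondrial superoxide dismutase SOD2 went from 1428, 1319, 490 and 753 to 4376, 4322, 1499 and 2532. Its 4 pairs were alike, at 1.62, 1.71, 1.61 and 1.75 log2 units, and it was called paired (limma adjusted p 1.01e-05) and not unpaired (0.258). Number 3 was the lowest SOD2 library of each group, and without it SOD2 was called unpaired too (log2 change 1.69, limma adjusted p 3.37e-03). GCH1, which starts tetrahydrobiopterin synthesis, rose by 1.66 in the paired fit (limma adjusted p 3.20e-03, 0.188 unpaired). HMOX1, the heme-degrading oxygenase, fell in the paired fit from 1226, 841, 2237 and 842 to 239, 399, 665 and 502 (log2 change -1.48, SE 0.38, limma adjusted p 4.55e-03 paired and 0.274 unpaired). Without number 3 HMOX1 was not called in either fit (log2 change -1.39, limma adjusted p 0.0179 paired).

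Adhesion and surface genes showed the same split. ICAM1, the adhesion molecule for leukocyte integrins, rose in the paired fit from 145, 108, 105 and 63.0 to 350, 336, 344 and 246 (log2 change 1.64, limma adjusted p 3.37e-04, 0.0293 unpaired). PTGER4, a receptor of prostaglandin E2, had 630, 627, 90.7 and 409 in KO and 1682, 1868, 440 and 1180 in KO LPS (log2 change 1.70, limma adjusted p 1.36e-04 paired and 0.904 unpaired), and 1.51 without number 3 (limma adjusted p 1.92e-03 unpaired). PTX3 and TNFAIP6, secreted proteins that organise the extracellular matrix, rose in the paired fit by 1.42 and 3.65. Neither was called unpaired (limma adjusted p 0.136 and 0.473). TNFAIP6 had 0 reads in KO library 3, and without number 3 its log2 change was 2.70. Among 33 costimulatory and surface receptors, CD40, CD274 (PD-L1), SLAMF7 and IL10RA rose in the paired fit, by 1.38, 3.32, 1.90 and 1.46, while the list's median was -0.04. No inflammasome gene of 13 was called in either fit, and NLRP3 had a log2 change of -0.40 (SE 0.24).

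C1QA, a chain of the first complement component, showed the largest fall among the calls. It had 78.0, 62.8, 89.5 and 58.9 in KO and 13.6, 5.20, 8.73 and 13.2 in KO LPS (log2 change -2.77, SE 0.35, limma adjusted p 8.78e-03). The groups were far apart, but the call was lost when any 1 of the 8 libraries was left out, with log2 changes of -2.93 to -2.52. The paired fit lowered 13 genes in all. Beside those above they were SPP1 (osteopontin), the gelatinase MMP9, the inhibitor of differentiation ID2, the oxysterol receptor GPR183, the cytochrome CYP1B1, RAB7B, ZNF296, FRAT2 and BORCS6, with log2 changes from -1.87 (SPP1) to -0.80 (RAB7B). CYP1B1 was the most abundant, at 3291, 3951, 4920 and 3253 in KO and 2073, 1893, 2835 and 1876 in KO LPS.

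Outside these lists, PMAIP1 (NOXA, a BH3-only inducer of cell death) and NCOA7 (a nuclear receptor coactivator) were called raised in both fits. PMAIP1 went from 324, 377, 438 and 498 to 1436, 1484, 1269 and 1181, and NCOA7 from 726, 841, 1014 and 758 to 2559, 2576, 2856 and 1894. Neither gene overlapped between groups, and the log2 changes were 1.72 (SE 0.17) and 1.56 (SE 0.18). Of the 120 genes of the paired fit, 50 were in no list. They included the kinase PIM1 (2.46), the repressor BCL6 (1.47), the antiviral zinc-finger protein ZC3HAV1 (1.50), the RNA receptor TLR7 (1.29), and MT-CO1 (0.90) with MTATP6P1 and MTND2P28, 2 nuclear copies of mitochondrial genes. Mitochondrial genes took 3.32%, 3.44%, 6.41% and 6.94% of reads in KO and 6.67%, 5.43%, 6.37% and 8.02% in KO LPS, and the part of that share in these 3 calls was not tested.

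**Figure D4:**
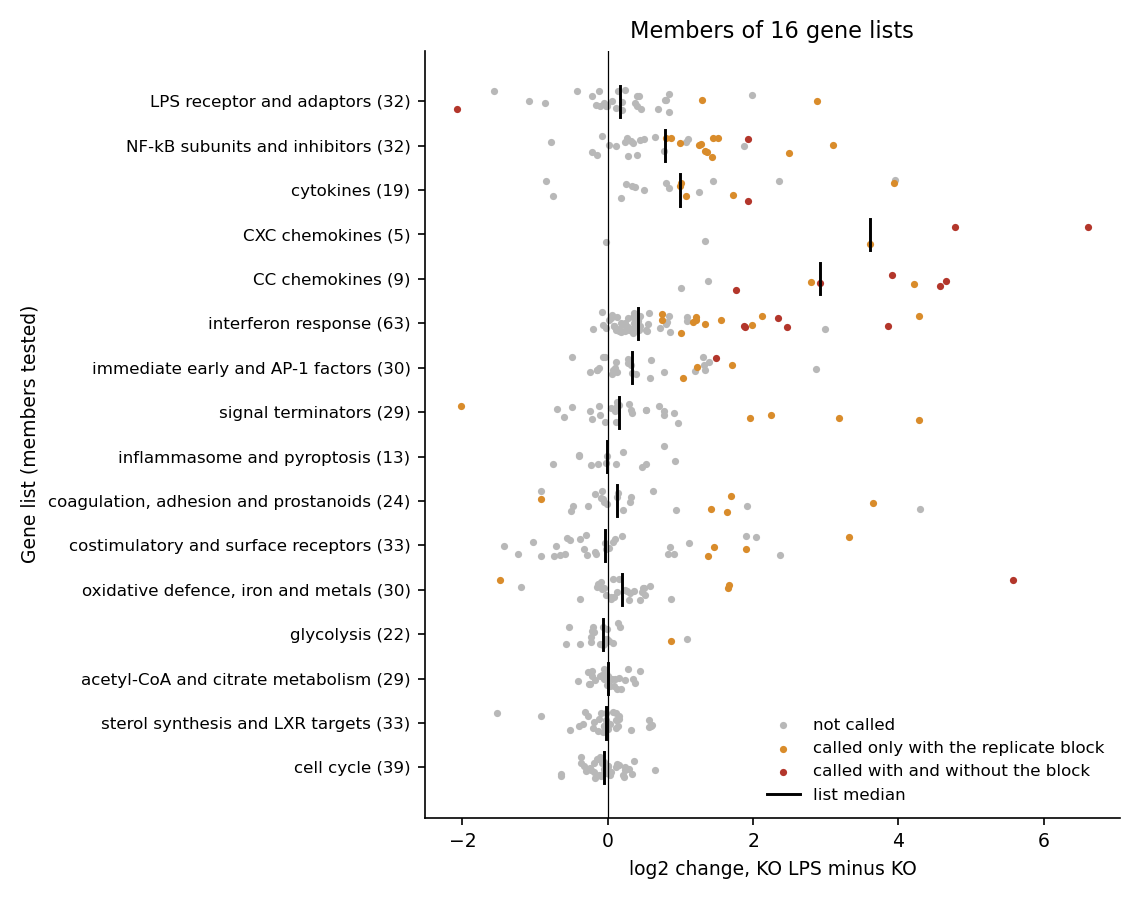
Each point is a tested member of 1 of 16 gene lists, at its log2 change with LPS, in red where called with and without the replicate block, orange where called only with it and grey otherwise, and black bars mark list medians. Chemokine medians (3.62 and 2.93) lie far to the right, and the acetyl-CoA, sterol and cell cycle lists have medians near 0 and no call.

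The lists of acetyl-CoA, sterol and cell cycle genes held no call, and that of glycolysis genes held 1. None of 29 tested genes of acetyl-CoA and citrate metabolism, 33 of sterol synthesis and LXR targets, and 39 of the cell cycle passed either fit, and their median log2 changes were 0.00, -0.03 and -0.06. ACSS2, which makes acetyl-CoA from acetate, had 123, 136, 213 and 158 in KO and 84.8, 134, 167 and 143 in KO LPS (log2 change -0.26, SE 0.26). FASN (fatty acid synthase) had a log2 change of -0.11 (SE 0.22), and the efflux pump ABCA1 had -0.92 (SE 0.82), with 88.2, 37.5, 20.6 and 23.7 in KO and 87.9, 30.2, 5.46 and 6.94 in KO LPS. Of 22 glycolysis genes only the hexose transporter SLC2A6 was called, in the paired fit (431, 376, 390 and 349 to 672, 720, 709 and 711, log2 change 0.86, limma adjusted p 3.95e-03, 0.0293 unpaired). The glucose transporter SLC2A1 and LDHA had log2 changes of -0.38 (SE 0.32) and -0.02 (SE 0.19). B2M had a log2 change of 0.11 (SE 0.24).

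The KO response was then set against that of each transduced line, by a limma interaction term over 16 libraries. All 20 called genes changed in the same direction in WT, HA and SA as in KO. They were chosen on the KO libraries, so their sizes in KO are not an independent measure. The median log2 change of the 18 raised genes was 2.41 in KO, 2.11 in WT, 2.54 in HA and 2.78 in SA, and 16, 13 and 10 of the 18 were larger in KO than in WT, HA and SA. Without the block no gene passed for KO against WT (0 of 12240, 263 or 2.15% at an unadjusted p below 0.05), against HA (0 of 12251, 112 or 0.914%) or against SA (0 of 12432, 163 or 1.31%). Same-numbered KO and WT libraries correlated at 0.345 to 0.703, and KO LPS and WT LPS libraries at 0.191 to 0.742. KO LPS library 1 correlated best with WT LPS library 2, so the pairing of number 1 was not borne out there. With the number as a block CCL5 alone passed against WT (0.00817% of genes), and with the number blocked within each line CCL5, CCL3L1, PTGER4 and MX1 passed (0.0327%). At an unadjusted p below 0.05 these fits held 8.66% and 9.01% of genes. No gene passed against HA or SA in either, where the shares at an unadjusted p below 0.05 were 1.17% and 2.16% for HA and 1.28% and 2.46% for SA. The number paired WT with WT LPS libraries (correlations 0.278 to 0.698). It did not pair HA with HA LPS or SA with SA LPS throughout (lowest correlations -0.235 and -0.151). Counts of the blocked fits are therefore not comparable across lines.

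CCL5 was the clearest of the 4. On the scale of the 16 libraries it read 793, 660, 775 and 705 in KO and 2511, 2853, 2476 and 2143 in KO LPS, against 921, 879, 1103 and 1177 in WT and 1402, 1164, 1297 and 1413 in WT LPS. KO thus began below all 4 WT libraries and ended above all 4 WT LPS libraries. The responses differed by 1.39 log2 units (SE 0.18, limma adjusted p 0.0118 without the block, 5.68e-04 with it, 8.09e-04 within lines), and KO minus HA and KO minus SA were 0.85 (SE 0.19) and 1.02 (SE 0.22), neither called (limma adjusted p 0.9998 for both).

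CCL3L1 averaged 276 ± 63.8 (SD, n = 4) in KO and 4177 ± 850 in KO LPS, against 73.4 ± 12.7 in WT and 447 ± 114 in WT LPS. The responses differed by 1.34 log2 units (SE 0.30, limma adjusted p 0.632 without the block and 8.75e-03 within lines). PTGER4 had a smaller rise in WT, from 838, 843, 252 and 750 to 1226, 1213, 338 and 878, and the difference was 1.27 (SE 0.89 without the block and 0.18 within lines). Number 3 was lowest in all 4 groups. MX1 was the 1 gene of the 4 with the smaller response in KO (difference -0.93, SE 0.32), where its unstimulated level of 6924 ± 1782 (SD, n = 4) was already above the 2023 ± 393 of stimulated WT cells, which rose from 972 ± 293. PTGER4 and MX1 also had limma adjusted p values of 8.75e-03 within lines and of 0.9999 without the block.

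**Figure D5:**
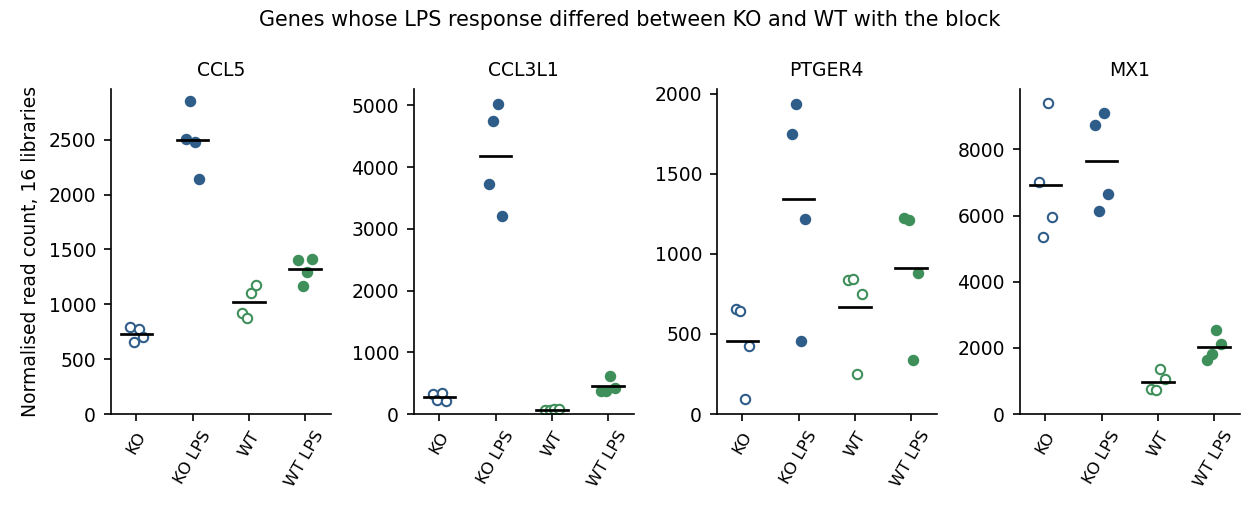
Normalised read counts over the 16 KO and WT libraries (linear axes from 0) are shown for the 4 genes whose LPS response differed with the number blocked within lines, with open points for unstimulated and filled points for LPS libraries, blue for KO, green for WT and bars for means. CCL5 rose from 733 to 2496 in KO and from 1020 to 1319 in WT.

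For several other genes with large KO responses no difference from WT in the log2 response passed. With the number blocked within lines, the KO minus WT difference was -0.07 (SE 0.33) for CCL4, -0.26 (SE 0.25) for CXCL10, 0.65 (SE 0.37) for CXCL11, 2.39 (SE 0.82) for CXCL9, -0.90 (SE 0.20) for IFIT3 and -0.18 (SE 0.35) for CCL2. TNF differed by 0.38 (SE 0.13) and CD14 by -1.54 (SE 0.30), and CD14 came closest of these to the threshold (limma adjusted p 0.0465 with the number as a block, 0.085 within lines). A difference that did not pass does not show that the responses were alike. Within lines the unadjusted limma p was 3.56e-04 for IFIT3, 0.0103 for CXCL9 and 9.72e-05 for CD14. Levels are a separate matter from responses. On the scale of each line, CXCL10 averaged 1114 in KO and 13160 in KO LPS, against 102.5 and 1428 in WT and WT LPS. CCL4 averaged 59.2 and 1382 against 6.73 and 179, and IFIT3 1342 and 6837 against 175 and 1654. CXCL11, CXCL9 and CCL2 also averaged higher in KO than in WT with and without LPS. Differences of level were not tested.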

How the data were processed

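Total RNA was sequenced from the 3′ end (QuantSeq FWD, single-end 75-base reads), and the authors used Bbduk for trimming, STAR for alignment (GRCh38), HTSeq-count for gene counts and DESeq2 for normalisation. The deposited values are normalised counts, each read count divided by a size factor of the library (median of ratios over the 8 libraries of a line). Multiplied back, every value was a whole number of reads within 0.05. Counts per gene were used as log2(count + 1). Tables held 60199 rows, of which 92 spike-ins (1 read in all) were left out.

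The test was limma (version 3.58.1, under R 4.3.3; moderated, with a mean-variance trend), run on genes with a mean of at least 10 at an adjusted p below 0.01, on the 8 KO libraries, checked on simulated data. P-values were adjusted over all genes tested. Pairing by library number was checked on deviations from group means. Same-numbered KO and KO LPS libraries correlated at 0.144, 0.631, 0.710 and 0.316. Because each was above 0.1, a fit with the number as block is printed where it changes a call. KO library 1 correlated best with KO LPS library 2, so its pairing was not borne out. KO and WT numbers also paired, except that KO LPS library 1 correlated best with WT LPS library 2. KO with HA or SA did not pair throughout. Same-numbered HA and HA LPS libraries correlated at 0.420, -0.235, 0.051 and 0.591. For SA and SA LPS libraries the values were 0.490, 0.303, 0.354 and -0.151. No 2 libraries agreed within sampling noise.

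Named genes were the 20 largest rises and 15 largest falls among calls with a mean of at least 50, up to 4 calls per list, the interaction calls, a fixed set of 15 genes and the most abundant calls, and the rule was applied to the paired fit too. Members and the 16 lists were chosen with earlier results of these data known, and genes outside the rule were named after their values were seen. Some genes that the rule named are not reported here. Coordinates are from GENCODE 44 (GRCh38) and promoters from RefSeq. Alternatives were pseudocounts, filters, scalings, a fit of all 32 libraries, leaving out libraries and voom weights.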

Additional observations from a re-analysis of the deposited data

Results flagged for a closer look

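Among 142 groups of 4 values checked, 6 held a sample whose gap to its nearest neighbour was an unusually large share of the group's range, and chance alone flags about 1 in 20 groups. CD14 was highest in KO library 1 (277 against 215 to 219 in the other 3, gap share 0.925). TNFAIP2 was highest in KO library 2 (952 against 642 to 669, 0.894). SOCS3 had no read in KO library 3 (normalised counts of 32.7 to 46.3 in the others, 0.912). DUSP5 was highest in KO library 1 (31.6 against 20.6 to 21.3, 0.921). ICAM1 was lowest in KO LPS library 4 (246 against 336 to 350, 0.888). The total of reads on genes was highest in KO LPS library 4 (13002790 against 8041764 to 8367926, 0.934).

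The LPS response of 4 genes differed between KO and WT by the interaction term with the number blocked within lines. The difference, KO minus WT in log2 units, was 1.385 for CCL5 (limma adjusted p 8.09e-04), 1.344 for CCL3L1, 1.267 for PTGER4 and -0.927 for MX1 (8.75e-03 for each of these 3). CCL5 was the 1 gene that also passed with the number as a single block (limma adjusted p 5.68e-04). In that fit the limma adjusted p was 0.0136 for CCL3L1 and PTGER4 and 0.0465 for MX1. Without a block no gene passed, with limma adjusted p 0.0118 for CCL5, 0.632 for CCL3L1 and 0.9999 for PTGER4 and MX1.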

How the results depend on the processing

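All 20 calls kept their direction under every alternative that tested them. The number of calls, 20 in all with 18 raised and 2 lowered, moved most with pairing and with single libraries. The replicate block gave 120 (107 raised, 13 lowered) and changed no call beyond adding 100 genes, and a single fit of all 32 libraries gave 76 (67 and 9). Leaving out 1 library at a time gave 5 to 31 calls, 5 to 29 raised and 0 to 2 lowered. Of the alternatives chosen after seeing the data, voom weights gave 13 calls (1 lowered), leaving out both libraries numbered 3 gave 89 (81 and 8), and the paired fit gave 77 (71 and 6) without number 1, 55 (53 raised) without number 2, 118 (108 and 10) without number 3 and 54 (50 and 4) without number 4. A pseudocount of 0.5 and no filter each left 1 lowered gene, as did a mean of at least 50, where C1QA was not tested because its mean is lower. The cause of the other moves was not tested.

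For KO against WT the count of 0 became 1 with a mean of at least 50, with all 32 libraries in the fit and with the replicate block, and 4 with the block within lines. It stayed at 0 in each fit without 1 library, and the counts against HA and SA were 0 throughout. The fits without 1 library had no block, so the blocked calls were not checked in that way. Signs turned in B2M, FASN and in the KO minus HA differences of PTGER4 and MX1, none of which was called. Leaving out 1 library, the log2 change of B2M ranged from -0.02528 to 0.2477 and of FASN from -0.2309 to 0.09467, and the KO minus HA difference ranged from -0.3488 to 0.7488 for PTGER4 and from -0.443 to 0.07663 for MX1. FASN was 0.01825 in the paired fit without number 1. The edgeR and DESeq2 count tests were not run.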
